A study of Zea mays with 12 samples.

Results

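The most abundant transcripts of maize leaves were 139 genes, taken from the 200 genes of highest mean value among the 44303 gene IDs of an RNA-seq table of 12 leaf libraries. Genes that differed strongly between groups were then left out, which removed 61 of the 200. A gene was left out if its blue-minus-dark difference reached 1.5 on the log2 scale in either genotype (54 genes), if its difference between genotypes reached 2 in either light condition (21 genes), or if blue light moved it by 0.75 or more in opposite directions in the 2 genotypes (3 genes). Some genes met more than one of these conditions. The members were thus chosen by their mean level and by all 4 of their group differences, and these values are given below as a description, without tests.

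The seedlings belonged to the inbred line B73, labelled wild type, and to zmcryq, labelled as a mutant. The name zmcryq refers to cryptochromes, and the labels do not give its alleles. All were 7 days old, had been raised in long-day white light and had spent 48 h in darkness, after which they received 1 h of blue light or stayed dark. The 4 groups, B73 dark, B73 blue, zmcryq dark and zmcryq blue, held 3 leaf libraries each, and the labels leave unsaid whether separate plants stand behind the 3 libraries of a group.

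Cryptochromes are receptors through which plants sense blue light and change the transcription of many genes. In green leaves a small number of transcripts, many of them serving photosynthesis, make up a large part of the RNA that is sequenced. A share of a library total is a closed quantity: where some transcripts take a larger share, the shares of the remaining ones must be smaller. Transcripts of this abundance therefore set much of the scale on which all other genes of a library are read.

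The files give genes by ID only, and the reference table of names held 0 of these IDs. The members are accordingly described without names, roles or genome positions, and the leaf label could not be checked against leaf marker genes. The counting of fragments shared by near-identical copies is not given in the sources used here. Members that are copies of each other cannot be told apart on these values. The values were read as FPKM (fragments scaled to transcript length and to the mapped total), the depth behind them is unknown, and in whole leaves fewer cells of a type cannot be told from less RNA per cell.

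Several libraries stood apart from the others of their group, and this bears on every result. The 139 members together took 25.6%, 28.8% and 32.6% of the summed FPKM in B73 dark libraries 1, 2 and 3. The B73 blue libraries gave 19.8%, 56.2% and 19.1%. In zmcryq dark they took 56.5%, 27.7% and 45.4%, and in zmcryq blue 36.9%, 50.6% and 25.98%. Library 2 of B73 blue was thus far above the other two of its group, library 1 of zmcryq dark held 2.04 times the share of library 2, and in zmcryq blue library 2 was the high one.

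**Figure D1:**
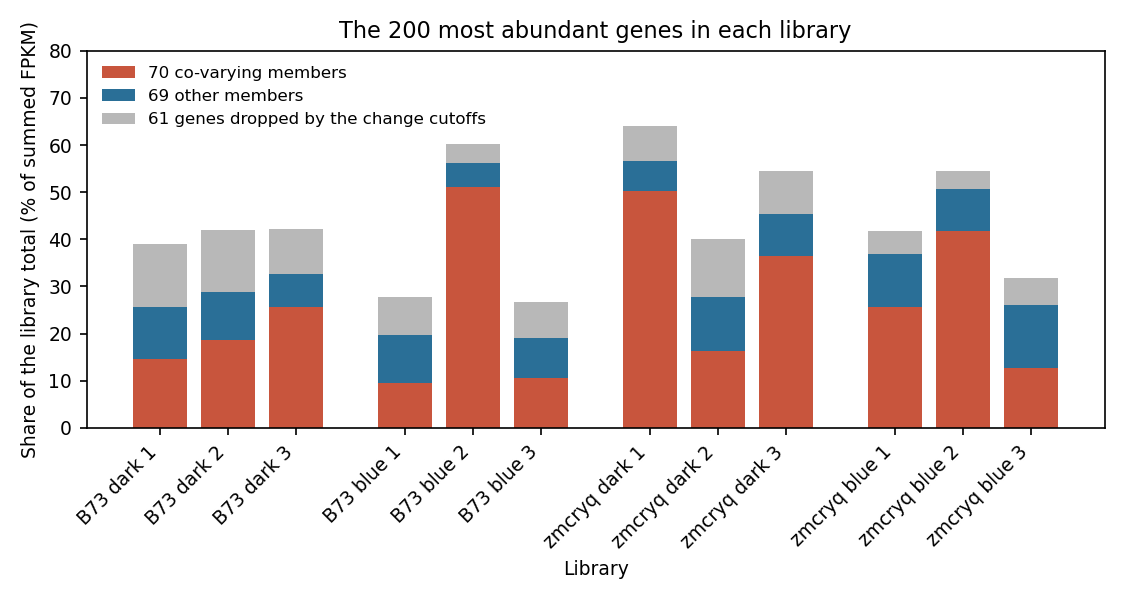
Stacked bars give, for each of the 12 libraries, the percentage of the summed FPKM taken by 70 co-varying members, 69 other members and the 61 genes left out for their group differences. The first set ran from 9.56% in B73 blue 1 to 51.2% in B73 blue 2, while the second stayed between 4.99% and 13.2%.

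Expression was concentrated in very few genes in the libraries with high shares. In B73 blue 2 the 8 most abundant genes of that library made up 25% of its total, against 115 genes in B73 blue 1 and 129 in B73 blue 3. In zmcryq dark the numbers were 7, 35 and 12 genes and in zmcryq blue 21, 9 and 74. For B73 dark they were 38, 27 and 33. Of the members, 57 were among the 200 highest genes in all 12 libraries, and 137 stood at 100 FPKM or more in every library.

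The members separated into 2 sets by how they varied within groups. A member was placed in the first set if its share of the library was higher in B73 blue 2 than in both other B73 blue libraries, a division made after the values had been seen. It held 70 genes, called co-varying members here, and the remaining 69 are called other members. Across the 21472 genes that reached 1 FPKM in 3 or more libraries, the background of all counts below, 2.77% were higher in B73 blue 2 in this way. None of the 61 genes left out for their group differences was, 0 of 61.

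The zmcryq libraries, which did not enter the condition of this division, separated the same genes. Their values had entered the choice of members, by mean level and by the cutoffs, and had been seen beforehand. The orders below are therefore no independent check. Shares of background genes must also fall where the co-varying members take more of a library, which bears on the background percentages. In zmcryq dark, 70 of 70 co-varying members had their highest share in library 1, the next in library 3 and the lowest in library 2, an order found in 0 of 69 other members and in 1.63% of the background. In zmcryq blue, 70 of 70 had the order library 2, library 1, library 3, found in 1 of 69 other members and in 3.06% of the background. That 1 gene is Zm00001eb013430. Both orders together with the B73 blue condition held in 0.792% of the background, 170 genes, of which 70 were these members. Whether these genes were members at all depended on single libraries: the conditions applied without zmcryq dark 2 left 75 genes, 6 of them co-varying members, and without zmcryq blue 2 they left 92, 25 of them co-varying members. Counts of this kind describe these libraries, since the members within a library share its total.

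**Figure D2:**
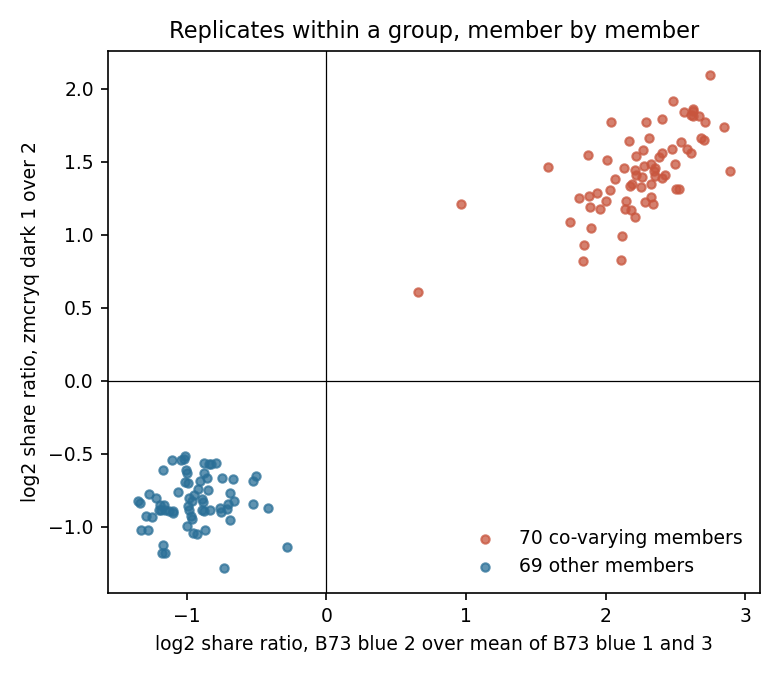
Each point is a member; the horizontal axis is the log2 ratio of its share in B73 blue 2 to its mean share in B73 blue 1 and 3, and the vertical axis the log2 ratio of its share in zmcryq dark 1 to that in zmcryq dark 2. The co-varying members lie at 0.66 to 2.89 and 0.60 to 2.09, and the other members at -1.35 to -0.28 and -1.28 to -0.52, with no member in between.

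The ratios left a gap between the sets. The log2 ratio of the share in B73 blue 2 to the mean of the other two libraries had a median of 2.28 in the co-varying members and of -0.96 in the other members. For zmcryq dark 1 against 2 the medians were 1.43 and -0.84. For zmcryq blue 2 against 3 they were 1.65 and -0.67, and there the ranges touched closely, 1.23 to 2.03 against -1.15 to 1.11. Part of the negative ratios of the other members is arithmetic, since a share must fall where the co-varying members take more of the total.

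The co-varying members carried nearly all of the variation in the summed share. They took 14.7%, 18.7% and 25.6% of the total in B73 dark, 9.56%, 51.2% and 10.6% in B73 blue, 50.2%, 16.3% and 36.5% in zmcryq dark, and 25.6%, 41.7% and 12.8% in zmcryq blue. The other members took 11.0%, 10.1% and 6.98% in B73 dark, 10.2%, 4.99% and 8.56% in B73 blue, 6.32%, 11.4% and 8.94% in zmcryq dark, and 11.3%, 8.93% and 13.2% in zmcryq blue. In each group, the library with the highest share of co-varying members had the lowest share of other members.

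The co-varying members also stood together in the numbering of the gene IDs, a property that the choice had not used. Of the 70, 53 had IDs from Zm00001eb435830 to Zm00001eb441800 and 16 had IDs from Zm00001eb261960 to Zm00001eb263970, and the last one was Zm00001eb411360. The 2 runs held 49.6% of all members but only 1.81% of the IDs listed in the table, 800 in number. They held 0 of the 69 other members and 0 of the 61 genes left out. Not every gene of the runs behaved alike: of 154 background genes in the first run 93 were highest in B73 blue 2, and of 124 in the second run 89 were. Outside the runs 413 background genes were highest in B73 blue 2. The files do not say where in the genome these runs lie, and what the genes encode was not analysed here.

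The most abundant member, Zm00001eb441200, belonged to the co-varying set and had a mean of 25170 FPKM over the 12 libraries. Its values were 16160, 20869 and 19432 FPKM for B73 dark and 9852, 41465 and 10287 FPKM for B73 blue. For zmcryq dark they were 48542, 15377 and 35191 FPKM and for zmcryq blue 27974, 42175 and 14716 FPKM. The libraries of each group overlapped those of every other group. In zmcryq dark 1 this gene alone took 7.99% of the total, against 1.22% in B73 blue 1.

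Of the 8 members of highest mean, 7 were co-varying: Zm00001eb441200, Zm00001eb441260, Zm00001eb263480, Zm00001eb441250, Zm00001eb262090, Zm00001eb437640 and Zm00001eb439770. Of the 20 highest, 16 were. Zm00001eb441260 stood at 10040, 12602 and 10891 FPKM in B73 dark, at 6196, 23515 and 5902 in B73 blue, at 26970, 9292 and 20442 in zmcryq dark and finally 16086, 23918 and 8868 in zmcryq blue. Zm00001eb262090, whose ID lies in the other run, stood at 5622, 7045 and 6575 FPKM in B73 dark, at 3352, 14137 and 3152 in B73 blue, at 16028, 5357 and 11892 in zmcryq dark and finally 9615, 13906 and 5188 in zmcryq blue. All 3 genes had their maximum in the same library of each of the B73 blue, zmcryq dark and zmcryq blue groups.

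**Figure D3:**
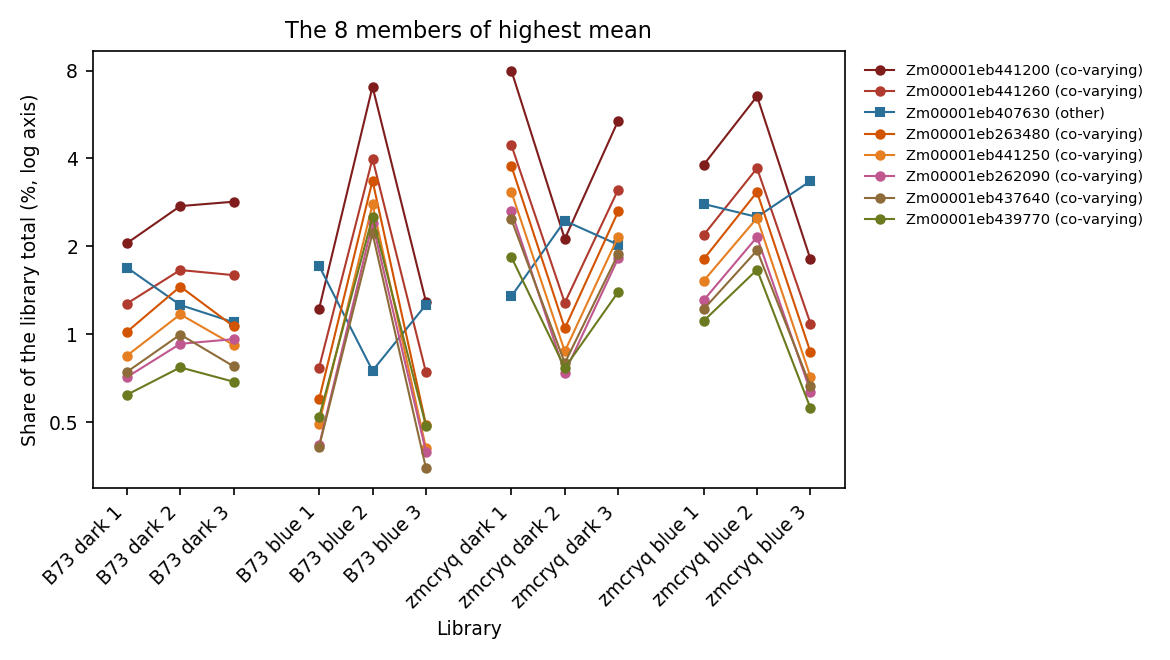
The share of the library total (percent, log axis) of the 8 members of highest mean is shown in each of the 12 libraries, with lines joining the libraries of a group for legibility only. The 7 co-varying members (circles) peak in B73 blue 2, zmcryq dark 1 and zmcryq blue 2, and Zm00001eb407630 (squares) is lowest in these 3 libraries of its groups.

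Zm00001eb407630 was the only one of these 8 outside the co-varying set. Its deposited values were 13344, 9566 and 7510 FPKM in B73 dark, 13813, 4419 and 10036 in B73 blue, 8191, 17737 and 13233 in zmcryq dark, and 20549, 16282 and 27277 in zmcryq blue. Divided by median-ratio library factors, which bring the median ratio of the genes to the same level in every library, they were 11632, 9191 and 7539 in B73 dark, 9559, 7735 and 6730 in B73 blue, 16164, 16492 and 18130 in zmcryq dark, and 16110, 18506 and 16513 in zmcryq blue. After this scaling all 6 zmcryq values were above all 6 B73 values, by 0.86 ± 0.19 (SE, n = 3 and 3) on the log2(scaled FPKM + 1) scale in the dark and by 1.10 ± 0.16 in blue light. The blue and dark libraries overlapped in both genotypes, with differences of -0.23 ± 0.23 in B73 and 0.01 ± 0.08 in zmcryq.

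The library factors moved with the members' summed share. They were 1.15, 1.04 and 0.996 in B73 dark, 1.45, 0.571 and 1.49 in B73 blue, 0.507, 1.08 and 0.730 in zmcryq dark, and 1.28, 0.880 and 1.65 in zmcryq blue. In all 4 groups the order of the factors was the reverse of the order of the summed shares, and both come from the same values. The FPKM outside the co-varying members differed between the highest and the lowest library of a group by 1.32-fold (B73 dark), 2.54-fold (B73 blue), 2.01-fold (zmcryq dark) and 1.89-fold (zmcryq blue). The corresponding ranges of the factors were 1.15-, 2.61-, 2.12- and 1.88-fold.

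The group means of the summed share did not separate the groups. They were 29.0 ± 3.46% in B73 dark, 31.7 ± 21.2% in B73 blue, 43.2 ± 14.5% in zmcryq dark and 37.8 ± 12.3% in zmcryq blue (SD, n = 3 each). Blue minus dark was 2.69 ± 12.4 percentage points in B73 (SE) and -5.40 ± 11.0 in zmcryq, and the libraries overlapped in both. Zmcryq minus B73 was 14.2 ± 8.62 percentage points in the dark and 6.13 ± 14.2 in blue light, again with overlap.

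Single libraries decided these differences. Without B73 blue 2 the blue-minus-dark difference in B73 was -9.55 percentage points and the genotype difference in blue light 18.4, both without overlap of the remaining libraries. The difference in B73 was 8.65 without B73 blue 1, 8.97 without B73 blue 3, 4.47 without B73 dark 3 and 1.011 without B73 dark 1. Without zmcryq dark 2 the genotype difference in the dark was 21.98, also without overlap, and without zmcryq dark 1 it was 7.58 with overlap. The genotype difference in blue light was 0.18 without B73 blue 1, -0.15 without B73 blue 3, -0.26 without zmcryq blue 2 and 12.1 without zmcryq blue 3. In zmcryq the blue-minus-dark difference was -13.15 without zmcryq dark 2, -11.8 without zmcryq blue 2, 0.52 without zmcryq blue 3 and 1.25 without zmcryq dark 1.

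After scaling, the median differences of the co-varying members rested on single libraries as well. Blue minus dark had a median of -0.16 in B73 (other members -0.32, background 0.00) and of -0.99 in zmcryq (other members -0.50, background 0.00). Zmcryq minus B73 had a median of 1.06 in the dark (other members 0.12, background 0.02) and of 0.15 in blue light (other members -0.02, background 0.01). With single libraries left out, the median in B73 ran from -1.17 (without B73 blue 2) to 0.46 (without B73 blue 1), and it was also above 0 without B73 blue 3 (0.37) or B73 dark 3 (0.20). The median in zmcryq ran from -1.63 (without zmcryq dark 2) to -0.42 (without zmcryq blue 3), and was -1.53 without zmcryq blue 2 and -0.49 without zmcryq dark 1. That in the dark ran from 0.57 (without zmcryq dark 1) to 1.63 (without zmcryq dark 2). The median in blue light ran from -0.46 (without B73 blue 1) to 1.17 (without B73 blue 2). It was also below 0 without B73 blue 3 (-0.36) or zmcryq blue 2 (-0.40), and 0.72 without zmcryq blue 3. For the other members the median in the dark was -0.06 without B73 dark 3, and that in blue light ran from -0.06 to 0.09. Over all 139 members the 4 medians were -0.23, -0.93, 0.87 and 0.10 after scaling, and -0.21, -0.19, 0.34 and 0.30 without it. The pooled within-group SD of a co-varying member had a median of 1.28 on this scale, against 0.23 for the other members and 0.18 for the background. The division, made on differences within B73 blue, sets part of this contrast.

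Groups that did not overlap in scaled value were almost confined to the other members, in counts that the cutoffs of the choice had limited. The division into sets bears on this as well. A co-varying member was defined by B73 blue 2 standing above the rest of its group, so spread within B73 blue was part of the definition. With blue light in B73, 6 members were higher in all 3 blue libraries than in all 3 dark ones (background 28.2%) and 20 were lower (background 26.9%), 26 other members in all and 0 co-varying ones. In zmcryq 11 were higher (background 34.4%) and 48 lower (background 34%), again 0 of them co-varying. In the dark 25 were higher in zmcryq (background 28%), of which 1 was co-varying, and 25 lower (background 27.4%). In blue light 27 were higher in zmcryq (background 32.5%) and 31 lower (background 32.8%), with 0 co-varying. The co-varying gene was Zm00001eb436930, at scaled values of 1375, 1687 and 1628 in B73 dark against 7924, 1705 and 4446 in zmcryq dark, so that the groups were parted by little more than the distance from 1687 to 1705. It and the genes below that are named beside counts of 5 or fewer were picked out after their values had been seen. These counts depended on single libraries. Each background given next was counted without the same library. Without B73 blue 2, 76 members were lower with blue light in B73, 55 of them co-varying (background 29.5%). In that setting 59 were higher in zmcryq in blue light, 32 of them co-varying (background 35.2%). Without B73 dark 3, 45 were lower (background 34.8%) and 10 higher (background 33.8%) with blue light in B73. In that setting 56 were higher in zmcryq in the dark, 30 of them co-varying (background 36%). Without zmcryq dark 2, 112 were lower with blue light in zmcryq, 63 of them co-varying (background 36.9%). In that setting 80 were higher in zmcryq in the dark, 56 of them co-varying (background 31.1%). Without B73 blue 1, 10 were higher with blue light in B73 (background 31.6%). In the values as deposited, without scaling, the counts higher and lower were 1 and 6 with blue light in B73 and 7 and 0 with blue light in zmcryq. Between the genotypes they were 5 and 24 in the dark, and 15 and 5 in blue light. The background was not counted on deposited values. These counts therefore do not show whether the members differed from other genes without scaling.

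**Figure D4:**
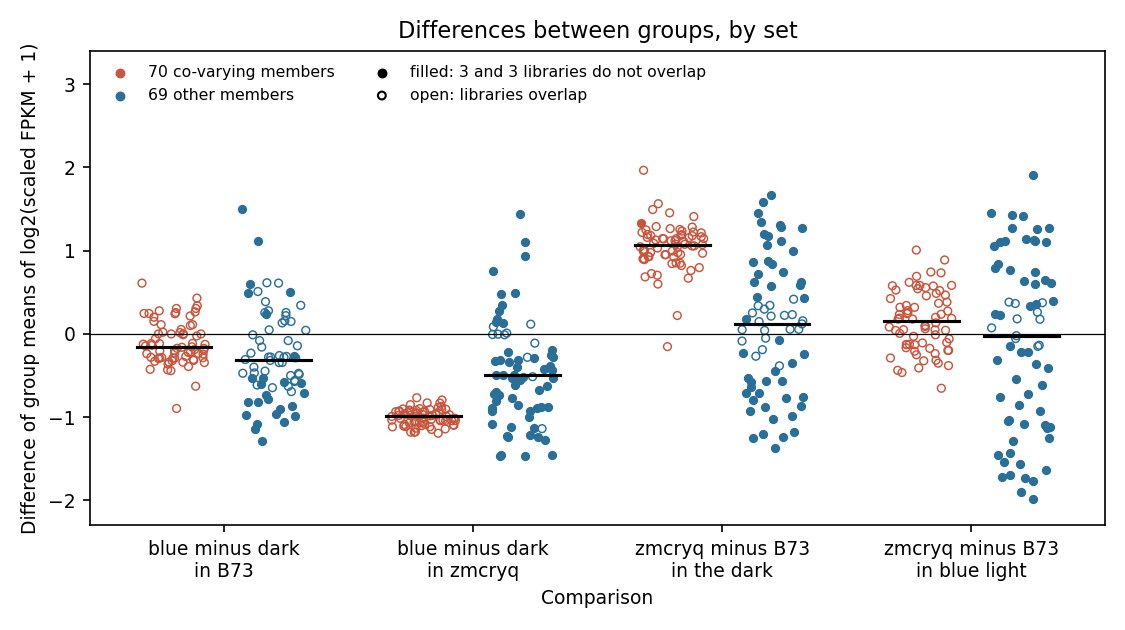
Points are members, and the vertical axis is the difference of group means of log2(scaled FPKM + 1) in each of the 4 comparisons, with a black bar at the median of each set. Filled points, whose 3 and 3 libraries do not overlap, lie among the other members apart from 1 co-varying member in the dark.

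The light comparisons of the 2 genotypes, which have no library in common, shared part of the other members without overlap. Of the 20 lower with blue light in B73, 19 were also lower in zmcryq (95% of the 20 and 39.6% of the 48). In the background, genes lower in both were 20.1% of all genes, 74.8% of those lower in B73 and 59.2% of those lower in zmcryq. Of the 6 higher in B73, 3 were also higher in zmcryq, namely Zm00001eb320890, Zm00001eb029200 and Zm00001eb261430 (50% of the 6 and 27.3% of the 11). Genes higher in both were 19.4% of the background, 68.7% of those higher in B73 and 56.3% of those higher in zmcryq. There were 2 higher in B73 and lower in zmcryq, Zm00001eb300130 and Zm00001eb158800, and 0 the other way round, beside 2.29% and 1.46% of the background. The choice had removed genes with strong changes, opposite ones included, so these shares hold only for what was left.

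The genotype comparisons in the dark and in blue light, also have no library in common. Of 24 other members higher in zmcryq in the dark, 21 were also higher in blue light (87.5% of the 24 and 77.8% of the 27). In the background such genes were 19.2% of all, 68.7% of those higher in the dark and 59.3% of those higher in blue light. Of 25 lower in the dark, 24 were lower in blue light (96% of the 25 and 77.4% of the 31). Here the background had 19.4% of all genes, 70.9% of those lower in the dark and 59.2% of those lower in blue light. Opposite directions were found in 0 other members, and in 2.19% (higher, then lower) and 1.68% (lower, then higher) of the background. In all, 15 of 69 other members had no overlap in any of the 4 comparisons (background 20.9%), and 2, Zm00001eb157900 and Zm00001eb170690, overlapped in all of them (background 8.2%). Zm00001eb157900 had scaled values of 1059, 1086 and 652 in B73 dark, 1375, 1109 and 1003 in B73 blue, 1083, 988 and 1092 in zmcryq dark, and 1065, 908 and 1189 in zmcryq blue.

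With blue light in B73, Zm00001eb320890 had the highest difference of the members that remained and lay just under the cutoff. Its scaled values were 466, 359 and 437 in the dark and 1076, 1258 and 1219 in blue light, a difference of 1.497 ± 0.13 (SE, n = 3 and 3) on the log2(scaled FPKM + 1) scale, as all differences below. Zm00001eb408010 had 394, 367 and 364 in the dark and 772, 730 and 944 in blue light, a difference of 1.11 ± 0.12. Each blue library of these genes was above each dark library.

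At the lower end, Zm00001eb250210 had scaled values of 450, 514 and 619 in B73 dark against 192, 190 and 267 in B73 blue, a difference of -1.29 ± 0.21. Zm00001eb050280 had 1239, 1170 and 1149 in the dark and 511, 481 and 620 in blue light, a difference of -1.15 ± 0.12. For both of these genes the blue libraries were all below the dark ones.

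In zmcryq the same gene had the highest difference: Zm00001eb320890 had scaled values of 206, 171 and 157 in the dark and 465, 475 and 511 in blue light, a difference of 1.44 ± 0.12. Its zmcryq levels were below those of B73 in both conditions, with zmcryq minus B73 at -1.23 ± 0.16 in the dark and -1.29 ± 0.08 in blue light. Zm00001eb291810 came next with 421, 450 and 428 in the dark and 924, 877 and 1003 in blue light, a difference of 1.11 ± 0.06. In B73 the libraries of Zm00001eb291810 overlapped, with a difference of 0.61 ± 0.38. Without scaling the differences in zmcryq were 2.18 for Zm00001eb320890 and 1.84 for Zm00001eb291810.

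Of the members lower with blue light in zmcryq, Zm00001eb299990 had scaled values of 1240, 1000 and 1132 in the dark and 359, 393 and 462 in blue light, a difference of -1.47 ± 0.14. Zm00001eb050280 had 987, 1025 and 1022 in the dark and 375, 339 and 386 in blue light, a difference of -1.46 ± 0.06. The second gene was thus among the 2 lowest differences in both genotypes. For Zm00001eb299990 the B73 libraries overlapped, with -0.47 ± 0.31. Without scaling the zmcryq differences were -0.73 for Zm00001eb299990 and -0.72 for Zm00001eb050280.

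Between the genotypes in the dark, the highest difference belonged to a co-varying member whose libraries overlapped. Zm00001eb262520 had scaled values of 917, 1328 and 109 in B73 dark against 4317, 768 and 2396 in zmcryq dark, a difference of 1.96 ± 1.34. Zm00001eb134340 followed with 249, 260 and 55.2 in B73 and 426, 528 and 516 in zmcryq, a difference of 1.66 ± 0.73 with no overlap. In both genes B73 dark 3 was far below the other two B73 libraries. Without it the differences were 0.85 for Zm00001eb262520 and 0.94 for Zm00001eb134340.

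Lower in zmcryq in the dark were Zm00001eb013430, at 984, 968 and 1512 in B73 and 618, 555 and 240 in zmcryq (-1.37 ± 0.48), and Zm00001eb293310, at 512, 475 and 515 in B73 and 210, 206 and 213 in zmcryq (-1.25 ± 0.04). The second gene varied little within either group. The first is the exception named above, whose shares in zmcryq blue were ordered like those of the co-varying members.

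In blue light Zm00001eb134340 had scaled values of 226, 296 and 156 in B73 and 867, 759 and 846 in zmcryq, a difference of 1.91 ± 0.27. Zm00001eb075630 had 334, 299 and 290 in B73 and 821, 829 and 883 in zmcryq, a difference of 1.46 ± 0.07. All zmcryq libraries exceeded all B73 libraries for both.

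Lower in zmcryq in blue light were Zm00001eb300130, at 553, 596 and 600 in B73 and 143, 162 and 136 in zmcryq (-1.98 ± 0.08), and Zm00001eb408010, at 772, 730 and 944 in B73 and 178, 233 and 246 in zmcryq (-1.89 ± 0.18). Zm00001eb300130 lay just inside the genotype cutoff. Zm00001eb408010 was higher with blue light in B73, while in zmcryq its libraries overlapped, with -0.51 ± 0.26.

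The other members could also be set against the part of each library that lies outside the co-varying members. On this measure, chosen after the values had been seen, they took 12.8%, 12.5% and 9.38% in B73 dark, 11.3%, 10.2% and 9.58% in B73 blue, 12.7%, 13.6% and 14.1% in zmcryq dark, and 15.2%, 15.3% and 15.2% in zmcryq blue. The libraries of a group, which had differed up to 2.05-fold in the share of the whole total, then differed by at most 1.37-fold. The means were 11.6 ± 1.90%, 10.4 ± 0.875%, 13.5 ± 0.71% and 15.2 ± 0.0761% (SD, n = 3 each). The B73 dark libraries remained the most spread, with an SD of 1.90 against 2.10 for the share of the whole total.

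**Figure D5:**
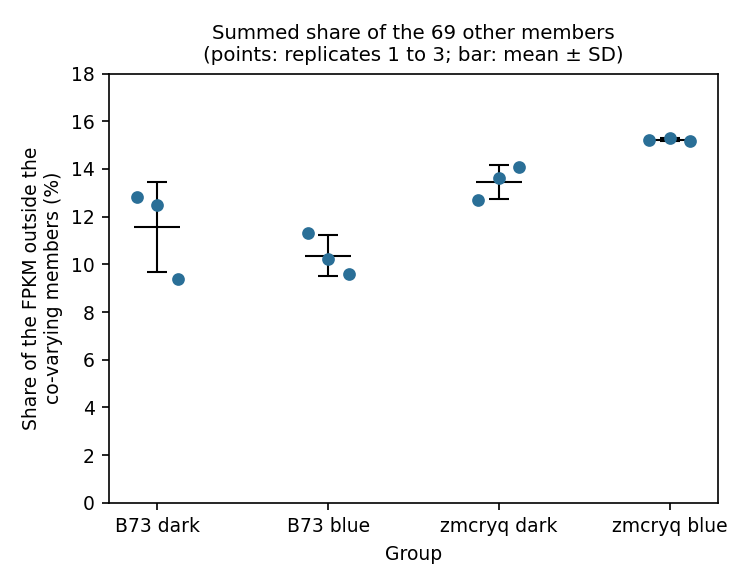
Points give, for the 3 libraries of each group, the percentage of the FPKM outside the co-varying members that the 69 other members took; the long bar is the mean and the error bar the SD. The zmcryq blue libraries, at 15.2% to 15.3%, lie above the zmcryq dark libraries, at 12.7% to 14.1%, and above the B73 blue libraries, at 9.58% to 11.3%.

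Zmcryq blue exceeded zmcryq dark by 1.76 ± 0.41 percentage points (SE, n = 3 and 3) and B73 blue by 4.86 ± 0.51, without overlap in either comparison. With single libraries left out these differences ran from 1.38 to 2.07 and from 4.46 to 5.33. The rise with blue light in zmcryq is that of a summed share. After scaling, 55 of the 69 other members had a difference below 0 there and 14 above 0, with a median of -0.50. Of the 21472 background genes, 10589 were below 0 and 10711 above 0, with a median of 0. The denominator includes the 61 genes left out for their group differences. Their mean share of the whole total was 9.62% in zmcryq dark and 4.84% in zmcryq blue. Blue minus dark in B73 was -1.19 with overlap. It became -2.28 without overlap when B73 dark 3 was left out, and with overlap -0.56 without B73 dark 1, -0.74 without B73 dark 2 and -0.80 without B73 blue 3. Zmcryq minus B73 in the dark was 1.90 with overlap. It was 2.54 without B73 dark 1 and 2.29 without zmcryq dark 1, both without overlap, and 0.81 with overlap without B73 dark 3. Without Zm00001eb407630, the most abundant of the other members, the group means were 9.89%, 8.75%, 10.5% and 11.3%. The differences without overlap were then 0.73 ± 0.31 and 2.50 ± 0.39.

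Within the co-varying set, the proportions of most members to each other varied less than their sum. Over the 12 libraries the summed share of the set ranged 5.36-fold. A member's proportion of the set ranged 1.71-fold in the median, less than the sum in 65 of 70 and more in 5, namely Zm00001eb262520, Zm00001eb436960, Zm00001eb441320, Zm00001eb263390 and Zm00001eb439550. The highest range, 15.7-fold, was that of Zm00001eb262520, at 0.908%, 0.975% and 0.062% of the set in B73 dark against 0.947%, 0.572% and 0.258% in B73 blue. Zm00001eb441200 made up 13.9%, 14.7% and 11.1% of the set's own FPKM in B73 dark, 12.8%, 13.8% and 12.2% in B73 blue, 15.9%, 12.97% and 14.8% in zmcryq dark, and 14.9%, 15.7% and 14.2% in zmcryq blue. Thus the gene kept between 11.1% and 15.9% of the set while its share of the library ranged from 1.22% to 7.99%. Zm00001eb439770 made up 4.22%, 4.13% and 2.69% of the set in B73 dark against 5.44%, 4.92% and 4.60% in B73 blue, with no overlap.

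Counted on these proportions, most differences without overlap were between the genotypes in blue light. Percentages here are of the 70 co-varying members, and no background was counted on this measure. Between zmcryq blue and B73 blue, 13 of 70 were higher in zmcryq (18.6%) and 25 lower (35.7%). With blue light in B73, 9 were higher (12.9%) and 1, Zm00001eb262420, lower (1.43%). In zmcryq 3 were higher with blue light (4.29%), Zm00001eb262520, Zm00001eb263330 and Zm00001eb263970, and 1, Zm00001eb440280, was lower. Between the genotypes in the dark Zm00001eb440090 was higher in zmcryq and Zm00001eb262420 lower. A proportion within a set is closed as well, so members that gain must be balanced by members that lose.

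Library 3 of B73 dark split the co-varying set. Of the co-varying members 54 of 70 had their highest share of the B73 dark group there, as had 17 of 69 other members and 44.3% of the background. There the log2 ratio of a member's share to the mean of B73 dark 1 and 2 ran from -3.31 (Zm00001eb262520) to 3.44 (Zm00001eb441320). Zm00001eb441320, named after its values had been seen, had 379, 279 and 3137 FPKM in B73 dark, and 233, 836 and 928 FPKM in B73 blue. The third library of B73 blue resembled the third of B73 dark in these genes: of 26 members at least 1 higher in B73 dark 3 on the log2 scale, all co-varying, 26 were also higher in B73 blue 3 than in B73 blue 1, and of 16 at least 1 lower, 13 of them other members, 16 were lower. In the background, 780 of 1107 such genes were also higher and 1055 of 1654 also lower. The labels give no batch, and nothing in them ties replicate numbers across groups.

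The cutoffs ran close to genes on both sides. By mean, Zm00001eb407710 at 320.9 FPKM was the last of the 200 and Zm00001eb411490 at 320.4 FPKM the first outside. With blue light in B73, Zm00001eb320890 at 1.4966 stayed in and Zm00001eb004420 at -1.5016 was left out. In zmcryq Zm00001eb299990 at -1.47 stayed in and Zm00001eb191350 at -1.51 did not. For the genotypes, Zm00001eb262520 at 1.96 in the dark and Zm00001eb300130 at -1.98 in blue light stayed in, and Zm00001eb287770 at -2.10 and Zm00001eb049640 at -2.08 did not. The most abundant genes left out were Zm00001eb355990, with a mean of 10101 FPKM, and Zm00001eb323110, with 5399 FPKM. The 61 genes left out took between 3.897% and 13.4% of a library, and in each group their share was lowest in the library where the co-varying members were highest.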

How the data were processed

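Libraries were prepared from total leaf RNA with a TruSeq kit, according to the protocols in the labels. As deposited by the authors, the data are 1 table with a value per gene and library, read here as FPKM. The unit is stated by no header or label; it was inferred from decimal values, unequal totals and the naming of Cufflinks in the submitters' processing notes, while TPM of a table with more genes would look alike. Besides Cufflinks, the notes list HISAT2 2.2.1.0, Trimmomatic 0.36, Bowtie2 and TopHat without saying what each was used for. The sources used here do not state build, annotation, strand or the counting of shared fragments. The authors' 4 columns of group means were not used.

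From these values, shares of the library total, scaled values and differences of group means of log2(value + 1), a scale that understates the change of low genes, were computed with Python 3.11.15, pandas 2.3.3 and numpy 2.4.6. Figures were drawn with matplotlib 3.10.9. Library factors are median ratios to the geometric mean over the 21128 genes above 0 in all 12 libraries. SE is that of the difference of 2 group means of 3 libraries. Groups do not overlap when every library of one exceeds every library of the other, and background percentages are over the 21472 genes that reached 1 FPKM in 3 or more libraries. All 139 members passed that filter. The scaling and the count of groups without overlap were also run on simulated libraries with independent noise for each gene. That setting does not cover a set of genes that rises together and takes much of a library.

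The members and lists were chosen with earlier results of these data known, and the choice used every contrast, so no test was run. Genes named are the 8 members of highest mean, the 2 highest and 2 lowest differences per comparison, those next to each cutoff and the 2 genes of highest mean left out, and any other is said to be chosen after its values were seen. Alternatives were other numbers of genes ranked, pseudocounts, scalings and each library left out. Depth is unknown, so no interval for counting error is given.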

Additional observations from a re-analysis of the deposited data

Results flagged for a closer look

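In 2 members every B73 blue library was above every B73 dark library while every zmcryq blue library was below every zmcryq dark library, on the scaled values. The same pattern was found in 2.29% of the 21472 background genes. The difference itself was not tested. For Zm00001eb300130 the scaled values were 387, 392 and 468 in B73 dark, 553, 596 and 600 in B73 blue, 267, 223 and 242 in zmcryq dark, and 143, 162 and 136 in zmcryq blue. The blue response in zmcryq minus that in B73 was -1.22 on the log2 scale. For Zm00001eb158800 they were 336, 321 and 218 in B73 dark, 435, 413 and 372 in B73 blue, 292, 292 and 307 in zmcryq dark, and 256, 220 and 242 in zmcryq blue, a difference of responses of -0.81. Both belong to the 69 other members, and genes with larger opposite changes had been left out by the choice of members.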

How the results depend on the processing

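The sign of a difference in summed share changed in 6 settings: blue minus dark in B73 was -2.80 with all 200 genes kept and -9.55 without B73 blue 2, that in zmcryq 1.25 without zmcryq dark 1 and 0.52 without zmcryq blue 3, and the genotype difference in blue light -0.15 without B73 blue 3 and -0.26 without zmcryq blue 2. For the genes named for the highest or lowest differences of a comparison, 0 of these differences changed sign. The members named for their mean level were not part of this check. Ranking 100 genes gave 77 members and ranking 400 gave 269; over the libraries left out in turn there were 75 to 139. The summed share in B73 dark was 24.8% with 100 genes, 33.6% with 400 and 41.1% with all 200 genes kept. Members without overlap, with blue light in B73, were 6 higher and 20 lower: as deposited 1 and 6, divided by the library total 3 and 12, divided by the total outside the co-varying members (a setting chosen after seeing the data) 11 higher, and with a library left out 7 to 10 and 20 to 76. In zmcryq 11 were higher and 48 lower: as deposited 7 and 0, by the library total 6 lower, outside the co-varying members 22 and 28, and with a library left out 48 to 112 lower. In the dark 25 were higher in zmcryq: 5 as deposited, 8 by the library total and 27 to 80 with a library left out. In blue light 27 were higher and 31 lower: as deposited 15 and 5, by the library total 14 lower, and with a library left out 28 to 59 higher. The background was not counted as deposited, by the library total or outside the co-varying members. With a library left out, 30.2% to 33.8% of it was higher and 28.6% to 34.8% lower with blue light in B73. In zmcryq 35.5% to 36.9% of it was lower with blue light. Higher in zmcryq were 30.1% to 36% of it in the dark and 34.6% to 35.8% in blue light. The causes were not tested. Of these summaries 171 values, the 6 changes of sign included, stayed within the spread or 1.5 times the count, and 30 did not. The spread was wide for the summed share, with an SD of 21.2 percentage points in B73 blue. For the genes named by their differences 146 values moved by less than the spread and 14 by more. For a difference, the spread was the square root of the summed variances of its 2 groups. That is larger than the SE printed with a difference. No paired analysis was possible because the values come from no test that a replicate block could enter, and the labels do not say that a shared replicate number marks shared plants or days. Unknown depth limits what can be said of any value's counting error.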
